A study of Caenorhabditis elegans with 2 samples.

Results

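The genes of the mitochondrial respiratory chain and of ATP synthase were examined for binding of the transcription factor PHA-4 near their starts. The set held every nuclear protein-coding gene of the Ensembl annotation whose symbol begins with nuo-, ndu, cox-, atp-, asb-, asg-, sdh, ucr- or cyc-, together with gas-1, isp-1, mev-1 and lpd-5. It came to 71 of 19973 nuclear protein-coding genes. Of these, 33 belonged to complex I, 5 to complex II, 7 to complex III, 2 encoded cytochrome c, 15 belonged to complex IV and 9 to ATP synthase. Genes entered the set by symbol and not by a measured value, but the set was chosen with earlier results of these data known. Any subunit gene with another symbol was left out, so the counts per complex need not cover the whole complex.

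The respiratory chain is a series of protein complexes in the inner mitochondrial membrane. Complexes I and II feed electrons into ubiquinone, complex III passes them to cytochrome c, and complex IV hands them to oxygen. The proton gradient that complexes I, III and IV build drives ATP synthase, and most of the subunits are encoded in the nucleus and imported. PHA-4 is the FoxA factor of Caenorhabditis elegans, a forkhead protein best known for specifying the pharynx and also active in other parts of the digestive tract.

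Binding was mapped by chromatin immunoprecipitation and sequencing in 2 biological replicates of 1 group. The animals were whole L4 larvae of strain RW12220, aged 48 h and synchronised by starving hatched L1 larvae after bleaching. In this strain (st12220[pha-4::TY1::EGFP::3xFLAG] V) CRISPR placed a TY1, EGFP and 3xFLAG tag in the pha-4 gene itself, on chromosome V, so the tagged protein is made wherever that gene is active. Chromatin was sonicated to 200 to 800 bp and pulled down through the GFP tag per the descriptions, although the antibody field reads pha-4. No untagged strain and no second condition was analysed here, so all comparisons are between genes and between replicates. Whole animals were used, so a peak in many cells and a strong peak in a few cannot be told apart, and tissue markers could not be checked because expression was not measured.

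The deposited peak lists were on the ce11 assembly. The main list came from both replicates and held 2920 nuclear peaks. A stricter list from both held 1555, the list of replicate 1 held 2114 and that of replicate 2 held 1643. These lists keep peaks at an irreproducible discovery rate (IDR) of at most 0.01. A further ranked list from pooled reads held 81354 nuclear candidate peaks with no such limit. The signal value of a peak is the authors' own and its scale is set per list, so values are compared within a list. Read numbers were not given, the depth is unknown, and the intervals below are 95% Wilson intervals that cover counting error over genes only. A gene had a promoter peak, and is called bound below, if at least 1 peak summit (the position of highest signal) fell between 1000 bp before and 500 bp after its start. Where a window held several summits, the strongest was used. This was done in each list apart, so the values given for a gene in different lists can come from different positions in its window.

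A promoter peak was present in the main list at 22 of the 71 genes, or 31% (21.4 to 42.5%), while 7.15% of all nuclear protein-coding genes had one. The genes were cox-5A, cox-5B and cox-6A of complex IV, atp-1, atp-2, atp-3, atp-5 and asg-2 of ATP synthase, cyc-1 and ucr-2.1 of complex III, mev-1 and sdha-1 of complex II, cyc-2.1 for cytochrome c, and nduf-9, nduc-2, nduf-11, ndub-8, ndua-8, ndua-2, nuo-5, ndua-7 and nuo-2 of complex I. The stricter list held a promoter peak for 15 of the 71, or 21.1% (13.2 to 32%), against 4.15% of all genes, and the 7 it lacked were atp-2, atp-5, ndua-2, ndua-7, ndua-8, nuo-2 and nuo-5. Replicate 1 alone gave 16, or 22.5% (14.4 to 33.5%), against 5.53%. Replicate 2 alone gave 11, or 15.5% (8.88 to 25.7%), against 3.85%. Both replicate lists held a promoter peak for 8 genes, or 11.3% (5.82 to 20.7%), against 2.47%. The share of the respiratory genes was above that of all genes in each list. These lists draw on the same pair of libraries and overlap, so they are not separate results. No test of the difference was run, because the genes were chosen with earlier results of these data known.

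The sequences at the summits are given for the strongest summit of each complex among those off the first chromosome and clear of annotated untranslated regions, for the summit shared by nduc-2 and the short form of cox-6B, and for the pair of summits that hold a forkhead heptamer. Each runs 5′ to 3′ on the strand of the gene over 50 bp to each side of the summit, in lower case, with capitals marking a match to TGTTTGC, read here on the other strand. The bases were read from RefSeq's ce11 sequence.
cox-5A, chrIII:12905139-12905239, plus strand: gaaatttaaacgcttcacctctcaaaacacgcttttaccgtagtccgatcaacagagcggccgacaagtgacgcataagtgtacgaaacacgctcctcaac
asg-2, chrX:6840943-6841043, plus strand: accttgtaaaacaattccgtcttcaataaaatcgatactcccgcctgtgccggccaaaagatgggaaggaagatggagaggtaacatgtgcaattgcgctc
ucr-2.1, chrX:12018122-12018222, plus strand: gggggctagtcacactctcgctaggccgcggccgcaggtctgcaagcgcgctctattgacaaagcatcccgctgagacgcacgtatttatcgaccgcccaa
mev-1, chrIII:10334099-10334199, plus strand: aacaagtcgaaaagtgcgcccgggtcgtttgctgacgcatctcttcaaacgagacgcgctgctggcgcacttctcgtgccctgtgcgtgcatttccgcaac
nduf-9, chrIII:3249164-3249264, minus strand: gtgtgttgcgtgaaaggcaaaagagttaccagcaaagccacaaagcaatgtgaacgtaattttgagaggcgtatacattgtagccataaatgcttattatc
nduc-2, chrIII:2786004-2786104, plus strand: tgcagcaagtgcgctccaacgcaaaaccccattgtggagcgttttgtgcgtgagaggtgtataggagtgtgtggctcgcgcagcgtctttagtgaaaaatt
ndua-7, chrII:13494906-13495006, minus strand: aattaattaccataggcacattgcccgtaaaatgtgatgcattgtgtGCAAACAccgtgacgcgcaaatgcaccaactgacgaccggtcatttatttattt
ndua-8, chrIII:2528784-2528884, plus strand: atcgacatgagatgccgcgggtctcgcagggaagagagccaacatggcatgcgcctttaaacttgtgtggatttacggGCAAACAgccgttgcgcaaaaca

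Complex IV, cytochrome c oxidase, had 3 of 15 genes bound in the main list, or 20% (7.05 to 45.2%), with a median signal of 276.2 among them. That was the smallest share of any complex in the main list, but it counts assembly factors with the subunits, and the order changed with the list. The stricter list held 3 of the 15 beside 4 of 33 in complex I, and the list of replicate 2 held 4 of the 15 beside 3 of 33. Its nuclear genes fall by name into structural subunits, numbered below 10, and factors that build the enzyme or load its heme and copper, numbered 10 or above. Of the 7 subunit genes, 3 had a promoter peak in the main list, or 42.9% (15.8 to 75%). All 3 also had one in the stricter list and in each replicate list. Of the 8 assembly factor genes, 0 had a promoter peak in the main list. By the Wilson interval this allows a share of up to 32.4%, and the 7.15% of all nuclear protein-coding genes lies within it. The difference between these groups of 7 and 8 genes was not tested.

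At cox-5A, named after the human subunit 5A, the summit had a signal of 537.9 in the main list, rank 22 of 2920. Its candidate peak had a signal of 364.7 in replicate 1 and 169.0 in replicate 2. This was the highest promoter signal of all 71 genes in the main list and in both replicates. The peak, on chromosome III from 12905076 to 12905300, lay 302 bp upstream of the gene in intergenic sequence, and no other coding gene had it in its window. At cox-6A the summit had a signal of 276.2, with 216.5 in replicate 1 and 66.2 in replicate 2. It lay 833 bp upstream of the gene start, within the small nuclear RNA gene F54D8.7, at chromosome III from 5080752 to 5080988. Whether the signal belongs to the small RNA gene or to cox-6A was not tested. At cox-5B the summit had a signal of 249.4, with 155.8 in replicate 1 and 96.0 in replicate 2. It fell 11 bp inside the gene, in its own 5′ UTR, and a weaker summit of 89.2 lay 581 bp upstream.

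The remaining complex IV subunit genes fell short of the main list. In the ranked list cox-7C had a candidate signal of 73.0, cox-4 of 65.5, cox-6C of 55.4 and cox-6B of 37.5. Among the assembly factors the strongest candidate was at cox-14, with a signal of 88.1, 69.7 in replicate 1 and 19.2 in replicate 2. Its −log10 IDR of 2.28 was past the limit of 2, yet the peak was not in the main list. Of 2985 nuclear ranked peaks past that limit, 65 were missing from the main list, and cox-14 was the only respiratory gene with one of them in its window. Per the notes deposited with the lists, a further file was used in making the thresholded lists, and its content is not given in the sources used here. The copper chaperone gene cox-17 had a peak in the list of replicate 2 only, at 35.2. Candidate signals were 51.8 at cox-11, 44.5 at cox-18, 39.1 at cox-10 and 5.41 at cox-19, and cox-15 and cox-16 had no candidate in the ranked list.

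**Figure D1:**
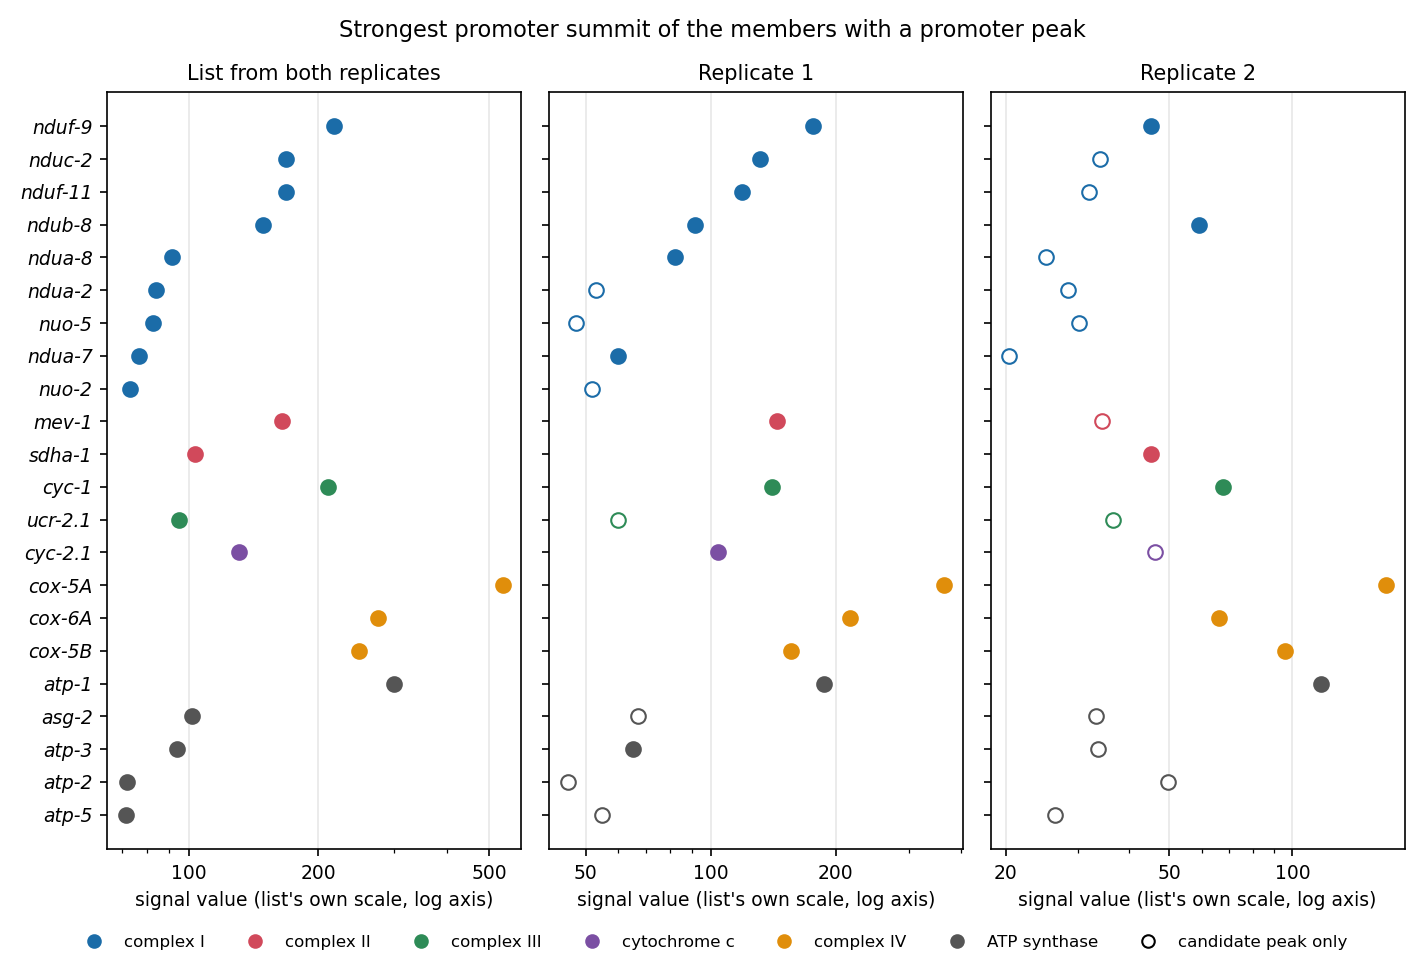
Signal value of the strongest promoter summit (x, log axis, each list on its own scale) of the 22 genes with a promoter peak in the main list, coloured by complex, in the main list and in the ranked lists of replicate 1 and replicate 2. Filled points in the replicate panels are also in that replicate's thresholded list. The cox-5A point lies farthest right in all 3 panels, at 537.9, 364.7 and 169.0.

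The annotation of cox-6B decided whether it was counted. Its Ensembl gene model begins 86391 bp before a summit of 168.9 at chromosome III position 2786054, in an intron of that model. The RefSeq gene begins at 2786202, which places the same summit 148 bp upstream of it. By the Ensembl start cox-6B had a candidate of 37.5 only, while by the RefSeq start it had the peak and the count rose from 22 to 23. Of the 71 genes, 1 had starts more than 1000 bp apart in the annotations, and over all genes 175 of 19962 did. The same summit was counted for nduc-2, an accessory subunit of complex I named after human NDUFC2, at 798 bp upstream. The gene nduc-2 starts near the end of cox-6B on the same strand and has a weaker summit of 83.0 at 48 bp inside its own start. The summit also lay 106 bp upstream of Y71H2AM.20, which is transcribed the other way.

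**Figure D2:**
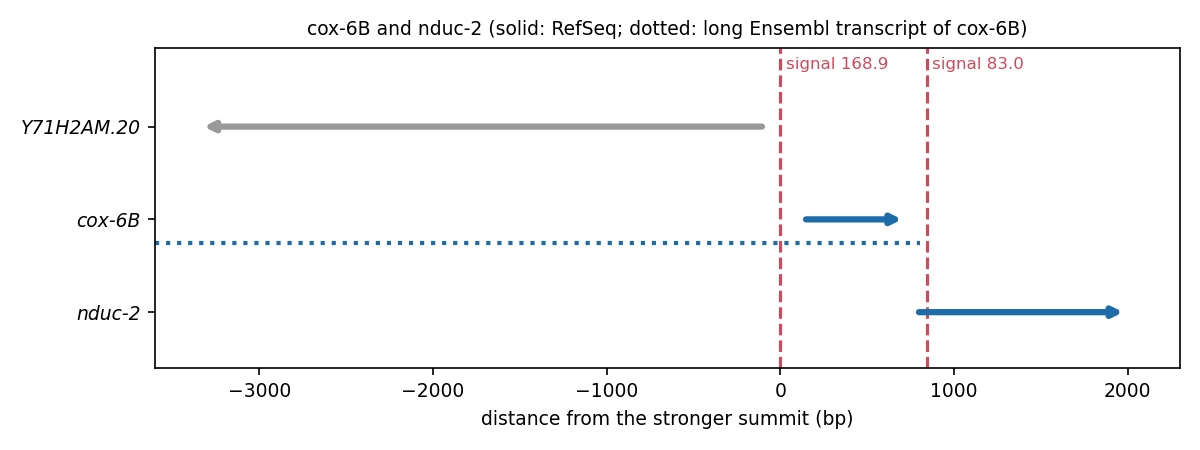
Map of cox-6B, nduc-2 and Y71H2AM.20 by distance from the stronger summit (x, bp), with RefSeq genes as solid arrows in the direction of transcription, the long Ensembl transcript of cox-6B dotted and running off the left edge, and main-list summits as dashed lines. The summit of 168.9 lies 148 bp before the RefSeq start of cox-6B and 798 bp before nduc-2.

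ATP synthase had a promoter peak at 5 of 9 genes, or 55.6% (26.7 to 81.1%), in the main list. The highest share of the complexes with more than 2 genes was thus at ATP synthase in that list only. The stricter list held 3 of the 9 beside 2 of 5 in complex II, that of replicate 1 held 2 beside 8 of 33 in complex I, and that of replicate 2 held 1 beside 2 of 7 in complex III. In the main list its signals ranged from 71.5 to 301.2 with a median of 94.2, so 1 gene stood well above the other 4. At atp-1, which encodes the alpha subunit of the catalytic F1 head, the signal was 301.2, rank 155, with 187.5 in replicate 1 and 117.4 in replicate 2. Both replicate lists held it. The summit lay 3 bp upstream of the gene start and was shared with mcrs-1. The beta subunit gene atp-2, the partner of atp-1 in the F1 head, had a signal of 71.8. It was thus near the lower end of the bound genes, and it was in neither replicate list. Its main-list summit lay 188 bp upstream and was shared with C34E10.10 and C34E10.12. The strongest candidates of the replicates lay apart, with 45.3 at -238 bp in replicate 1 and 49.7 at 264 bp in replicate 2 (negative is upstream).

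The other bound ATP synthase genes encode parts of the stalk and the membrane sector. At asg-2, a gene for subunit g, the signal was 101.6, with 66.9 in replicate 1 and 33.2 in replicate 2, and the summit lay 265 bp upstream, shared with glr-6. At atp-3, which encodes the oligomycin sensitivity-conferring protein that holds the F1 head, it was 94.2, with 65.2 in replicate 1 and 33.5 in replicate 2. At atp-5, for subunit d, it was 71.5, with 54.8 in replicate 1 and 26.4 in replicate 2. These 3 lay in a narrow band, and only atp-3 was also in a replicate list, that of replicate 1. The summits of all 5 bound ATP synthase genes were shared with a neighbouring coding gene. The unbound genes had candidate signals of 64.2 at atp-4, 61.1 at asb-2 and 29.2 at asg-1, and asb-1 had none in the ranked list. Both asb genes encode subunit b, and asb-2 had 22.4 in replicate 2 where asb-1 had 14.8.

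Complex III had a promoter peak at 2 of 7 genes, 28.6% (8.22 to 64.1%). The cytochrome c1 gene cyc-1 had a signal of 210.9, rank 413, with 140.6 in replicate 1 and 67.6 in replicate 2, and both replicate lists held it. Its summit lay 277 bp upstream and in no other window. The core protein gene ucr-2.1 had 94.8, with 59.9 in replicate 1 and 36.5 in replicate 2, from a summit 257 bp upstream that lay nearer to the start of nmat-1. Neither of its close relatives was bound, with candidates of 7.53 and 9.78 in the replicates at ucr-2.3 and none at ucr-2.2. The Rieske iron-sulfur protein gene isp-1 had a candidate of 35.7, with 25.6 in replicate 1 and 9.51 in replicate 2. The other core protein gene, ucr-1, was in the list of replicate 2 only, at 43.7. For ucr-11 the candidate was 57.5.

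Complex II, succinate dehydrogenase, had a promoter peak at 2 of 5 genes, 40% (11.8 to 76.9%). At mev-1, the cytochrome b subunit gene known for its oxygen-sensitive mutant, the signal was 164.7, rank 681, with 144.1 in replicate 1 and 34.3 in replicate 2. Only the list of replicate 1 held it, and its summit, 128 bp upstream, was shared with jmjd-4. At sdha-1, for the flavoprotein subunit, the signal was 103.4, and replicate 2 had 45.3 while replicate 1 had no candidate in the window. It was the only bound gene that the list of replicate 2 held and that of replicate 1 did not. Its summit lay 228 bp upstream and near the small nucleolar RNA gene D2021.6. The candidates at sdha-2, sdhd-1 and sdhb-1 were 33.4, 24.9 and 17.1, so the second flavoprotein gene stood below sdha-1.

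The worm has a pair of cytochrome c genes, and they differed. At cyc-2.1 the strongest summit in the window had a signal of 130.7 and lay 14 bp inside the gene in its 5′ UTR. A further summit of 95.1 lay 489 bp inside the gene, and this was the one the stricter list kept. The strongest candidate of replicate 1 had 104.4 at 15 bp inside the gene. That of replicate 2 had 46.3 at 494 bp inside, so it lay by the further summit. A far stronger summit of 638.3 lay 1052 bp upstream, just outside the window, in the window of rpl-20, a ribosomal protein gene on the same strand. At cyc-2.2 no candidate was found in the pooled list or in that of either replicate.

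Complex I, NADH dehydrogenase, had a promoter peak at 9 of 33 genes, 27.3% (15.1 to 44.2%), with signals from 73.0 to 217.4 and a median of 91.6. The stricter list held 4 of the 33, the list of replicate 1 held 8 and that of replicate 2 held 3. The strongest were accessory subunits that surround the catalytic core and are named after their human counterparts. At nduf-9 the signal was 217.4, rank 384, with 176.4 in replicate 1 and 45.2 in replicate 2. Its peak, the narrowest of the set at 102 bp, lay 639 bp upstream within the microRNA gene cel-mir-4936. At nduf-11 the signal was 168.8, with 118.7 in replicate 1 and 31.9 in replicate 2, from an unshared summit 227 bp upstream. At ndub-8 it was 149.2, with 91.7 in replicate 1 and 59.0 in replicate 2, from a summit 174 bp upstream that was shared with cup-14. Of these 3, nduf-9 and ndub-8 were in both replicate lists, and nduf-11 was in that of replicate 1 only.

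The other accessory subunit genes had weaker peaks. At ndua-8 the signal was 91.6, with 82.1 in replicate 1 and 25.0 in replicate 2. At ndua-2 it was 84.1, with 53.0 and 28.4. At ndua-7 it was 76.6, with 59.7 and 20.4. The list of replicate 1 held ndua-8 and ndua-7 but not ndua-2. Among the core subunits, which carry the flavin and the iron-sulfur clusters or hold the ubiquinone site, only nuo-5 and nuo-2 had a promoter peak. At nuo-5, for the large iron-sulfur subunit, the signal was 82.6, with 47.5 in replicate 1 and 30.2 in replicate 2, and the summit lay 117 bp inside the gene, in an intron. At nuo-2 the signal was 73.0, with 51.9 in replicate 1 and no candidate in replicate 2, and the summit fell in the 3′ UTR of T10E9.14. Neither was in a replicate list.

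The other complex I genes had weak candidates or none. The flavoprotein gene nuo-1 had 66.0, just under the weakest bound gene at 71.5. The core genes nduf-7 and ndus-8 had 49.2 and 47.8, and the accessory gene lpd-5 had 28.2. The gene nduv-3 had 58.1 and was in the list of replicate 1 only, at 49.7. Among the accessory subunit genes ndua-1 had a candidate of 48.6, ndua-13 of 48.2, ndua-12 of 26.9 and ndua-5 of 25.8. The ranked list held a candidate for 26 of the 33 genes, and those of the unbound genes reached down to 14.9 at nuo-3. For gas-1, the core subunit gene whose mutant is sensitive to volatile anaesthetics, and for nuo-6 and ndub-11 no candidate was found in the pooled list or in that of either replicate. With ucr-2.2 and cyc-2.2 this made 5 of the 71 genes.

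The gene nduf-2.2, a relative of gas-1, differed between the lists in another way. Replicate 1 had a summit of 123.8 there, rank 526 of 2114, 868 bp upstream, and replicate 2 had one of 155.5, rank 84 of 1643, 831 bp upstream. Both thresholded replicate lists held these peaks, but no list made from both replicates had a summit in the window. The nearest in the main list had a signal of 107.6 and lay 2419 bp upstream. The summit of replicate 2 fell in the noncoding RNA gene T26A5.10, and the window of dlc-1 held it as well. Over all genes, 11 were in both replicate lists but not in the main list, among 493 in both.

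**Figure D3:**
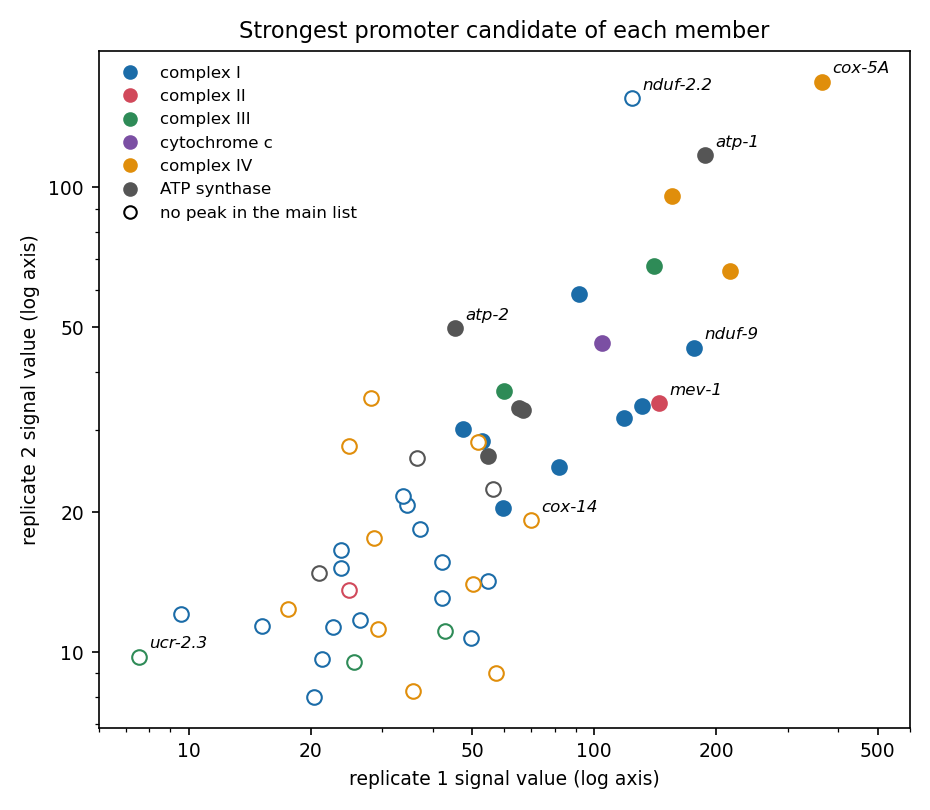
Signal of the strongest promoter candidate in replicate 1 (x) and replicate 2 (y), both log axes, for the 53 respiratory genes with a candidate in both ranked lists, coloured by complex and open where the main list had no promoter peak. The cox-5A point is at the upper right, and nduf-2.2 is the open point among the strongest. The candidates of a gene can lie at different positions of its window in the replicates.

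The strongest candidates per window had a similar order in the replicates, which differed in how many genes they called. A gene's candidates were not matched by position. At ndub-3 they lay at 492 bp in replicate 1 and -873 bp in replicate 2 (negative is upstream). The correlations below therefore compare windows and not single peaks. Of the 53 genes with a candidate in both replicates, replicate 1 had the higher value in 47, and the scales of the lists differ. Across these genes, which share both libraries and are not independent replicates, Pearson's r of the log2 signals was 0.79 and Spearman's rho was 0.75. Over the 20 of them with a main-list peak rho was 0.68. Of the 22 bound genes, 7 were in both replicate lists, 7 in that of replicate 1 only, 1 in that of replicate 2 only and 7 in neither. Of all 1429 bound genes, 482 were in both, 498 in that of replicate 1 only, 160 in that of replicate 2 only and 289 in neither. The 8 genes in both lists were 50% of the 16 in replicate 1 and 72.7% of the 11 in replicate 2, where all genes gave 44.7% and 64.1%.

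The bound respiratory genes had signals from 71.5 to 537.9 and all 1429 bound genes from 9.6 to 1029.3, and the difference was not tested. Their median signal was 117.1, and that of all bound genes was 112.5. Among the strongest 25% of all nuclear peaks were 9 of the 22, or 40.9%, and 30.2% of the 1429. All 3 complex IV genes, atp-1, nduf-9, cyc-1, nduc-2, nduf-11 and mev-1 made up the 9. The pooled ranked list, which has no IDR limit, held a candidate in the window of 59 of the 71 genes, or 83.1% (72.7 to 90.1%), and of 52.0% of all genes. Their median candidate signal was 57.5, and that of all genes with a candidate was 38.0. In the ranked list of replicate 1 the medians were 42.8 and 28.1, and in that of replicate 2 they were 21.7 and 16.5. The 49 genes without a main-list peak therefore included 37 with a candidate, from 5.41 to 88.1 with a median of 39.1, and 12 with none.

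Summits lay mostly a short way upstream of the gene start. The median offset of the 22 was -228.5 bp, negative being upstream, and that of all genes with a promoter peak was -233.0 bp. Within 300 bp upstream were 13 of the 22, or 59.1%, against 47.3% of all, and downstream of the start were 3, or 13.6%, against 13.4%. The farthest upstream were cox-6A at 833 bp, nduc-2 at 798 bp and nduf-9 at 639 bp, and the summits of cox-6A and nduf-9 were in small RNA genes. Just beyond the upstream edge lay cyc-2.1 at 1052 bp and ucr-11 at 1305 bp, with signals of 638.3 and 281.8. Just beyond the downstream edge lay cox-7C at 994 bp and nduv-2 at 1077 bp, with 93.9 and 73.0. By annotation, 13 summits were intergenic, 4 in noncoding genes, 2 in 5′ UTRs, 2 in introns and 1 in a 3′ UTR.

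**Figure D4:**
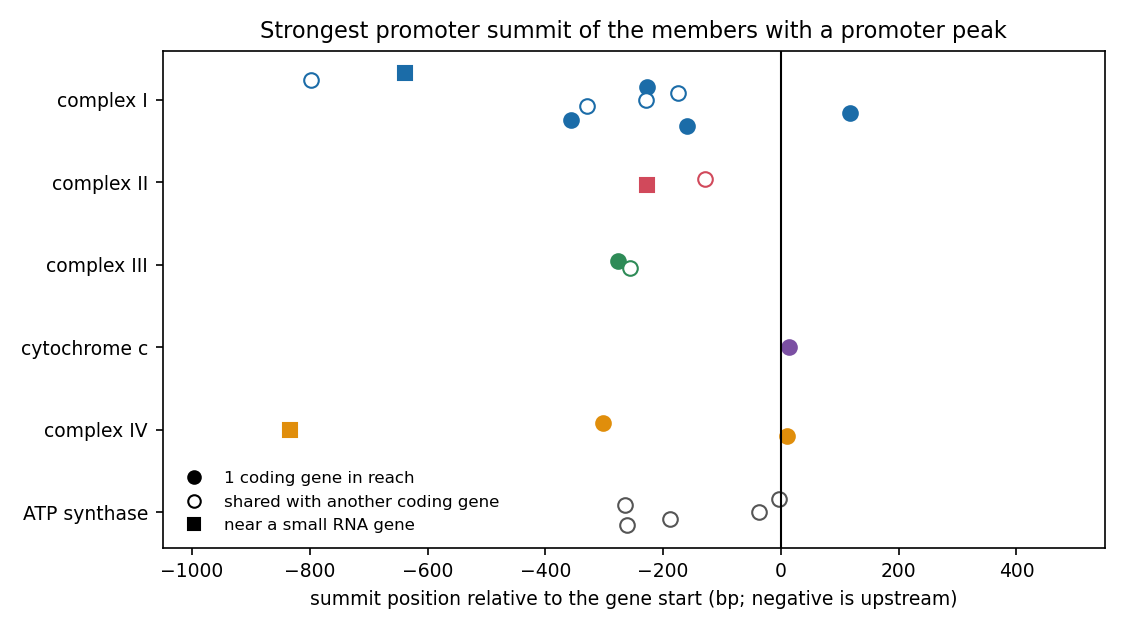
Distance of the strongest main-list summit from the gene start (x, bp, negative upstream) for the 22 bound genes by complex. Open circles are summits that another coding gene also has in its window, filled circles have 1 coding gene in reach and squares lie near a small RNA gene. All 5 ATP synthase summits are shared, and the summits farthest upstream belong to cox-6A, nduc-2 and nduf-9.

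A peak between neighbouring genes cannot be assigned to either of them from these data. Of the 22 summits, 11, or 50%, also lay in the window of another coding gene, against 41.3% over all bound genes, and all 11 had a neighbour transcribed the other way, 50% against 33%. For atp-5, ndua-2, ndua-8, ucr-2.1 and nduc-2 the summit lay nearer to the start of the neighbour. Small RNA genes were within 250 bp of 3 of the 22, or 13.6%, against 10.1%. By the Ensembl starts no pair of respiratory genes shared a peak, so 22 distinct peaks were counted.

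Many worm genes lie in runs on 1 strand, and some runs are transcribed together from the start of the first gene. Runs were defined here only by gaps under 500 bp on the same strand. By that measure 22 of the 71 genes were later members of a run, and 8 of these, or 36.4%, had a promoter peak of their own, against 7.52% of all such genes. Among the 49 that were first or alone 14 did, or 28.6%, against 7.06%. Over all genes, the first gene of the run had a peak for 515 of 4161 later genes, and 403 of those lacked one of their own. Among the respiratory genes it had a peak for 6 of the 22 later genes, and 5 of those lacked one of their own. The first genes were lin-54 with 425.0 for cox-11, Y55F3AR.2 with 407.7 for cox-18, dad-1 with 281.8 for ucr-11, syf-2 with 218.3 for nuo-4 and ubxn-2 with 135.7 for ndua-12. With the first gene's start allowed as well, the count rose from 22 to 27, and the share of all genes with a peak under the same rule rose from 7.15% to 9.17%. Whether these runs are transcribed as units in these animals was not tested.

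Sequence at the summits was searched on both strands for TGTTTAC, its relative TGTTTGC, the variant form TATTTAC and lastly TATTTGC, heptamers of the kind that forkhead factors bind. Within 50 bp of the summit 2 of 22 held one, or 9.09%, and 8.46% of all 2920 nuclear summits did. Both were TGTTTGC, at ndua-7 and ndua-8, as capitalised above, and both genes had weak peaks. The same letters written backwards, CATTTGT, its relative CGTTTGT, the variant form CATTTAT and lastly CGTTTAT, were also found at 2 of 22, with 5.65% over all summits. The GATA sites TGATAA and AGATAA, bound by intestinal GATA factors, were found at 0 of 22 within 50 bp and at 12.2% of all summits. Within 100 bp the forkhead heptamers were at 4 of 22, or 18.2%, against 15.6%, and the GATA sites at 5 of 22, or 22.7%, against 23.6%. A window of 250 bp before to 50 bp after the gene start held a forkhead heptamer in 16 of the 71 genes, or 22.5%, and in 22.6% of all genes. GC content over the same 50 bp to each side was 47.9% ± 7.89 (SD over 22 summits) and 46.5% ± 10.1 (SD) over all nuclear summits.

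Bound genes were found on every nuclear chromosome. Chromosome III had 7 of its 16 respiratory genes bound, chromosome I had 6 of 20, chromosome II had 3 of 11, chromosome X had 3 of 6, chromosome V had 2 of 7 and chromosome IV had 1 of 11. Over all genes the shares were 10.4% on chromosome III, 9.83% on I, 6.58% on II, 6.08% on X, 4.79% on V and 7.28% on IV. With 6 to 20 respiratory genes per chromosome these counts are small, and no difference between chromosomes was tested. The single bound gene on chromosome IV was cyc-2.1.

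Other metabolic genes gave a range of shares beside the respiratory genes, where 7.15% of all nuclear protein-coding genes had a promoter peak. Of the enzymes of the TCA cycle and pyruvate dehydrogenase, which supply the chain with reducing power, 8 of 21 had a promoter peak, or 38.1%. They were led by dld-1 at 191.8, for the lipoamide dehydrogenase shared by several of these enzymes, pdhk-2 at 180.8 and the aconitase gene aco-2 at 129.3. Of 22 listed mitochondrial import and folding genes, 18 were found in the annotation, and 8 of the 18 had a promoter peak, or 44.4%. The highest were the chaperonin gene hsp-60 at 506.6, tomm-20 at 168.8 and hsp-6 at 146.3. The adenine nucleotide carrier ant-1.1, which exports the ATP made, had 196.5, and misc-1 had 105.5, so 2 of 6 carrier genes were bound, or 33.3%. Of the glycolytic genes 4 of 19 were bound, or 21.1%, with hxk-2 at 102.1, gpi-1 at 98.0 and pyk-1 at 96.0 the highest. Of genes for upkeep and expression of mitochondrial DNA, 1 of 8 was, or 12.5%, mtss-1 at 92.0. Of the ubiquinone synthesis genes 0 of 8 were. The median signal of the bound glycolytic genes was 97.0, beside 91.6 in complex I, 94.2 in ATP synthase and 276.2 in complex IV. Among the genes named here, the summits of aco-2, hsp-60, hsp-6, ant-1.1, misc-1, hxk-2 and mtss-1 also lay in the window of another coding gene. The shares of these small lists have wide intervals.

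**Figure D5:**
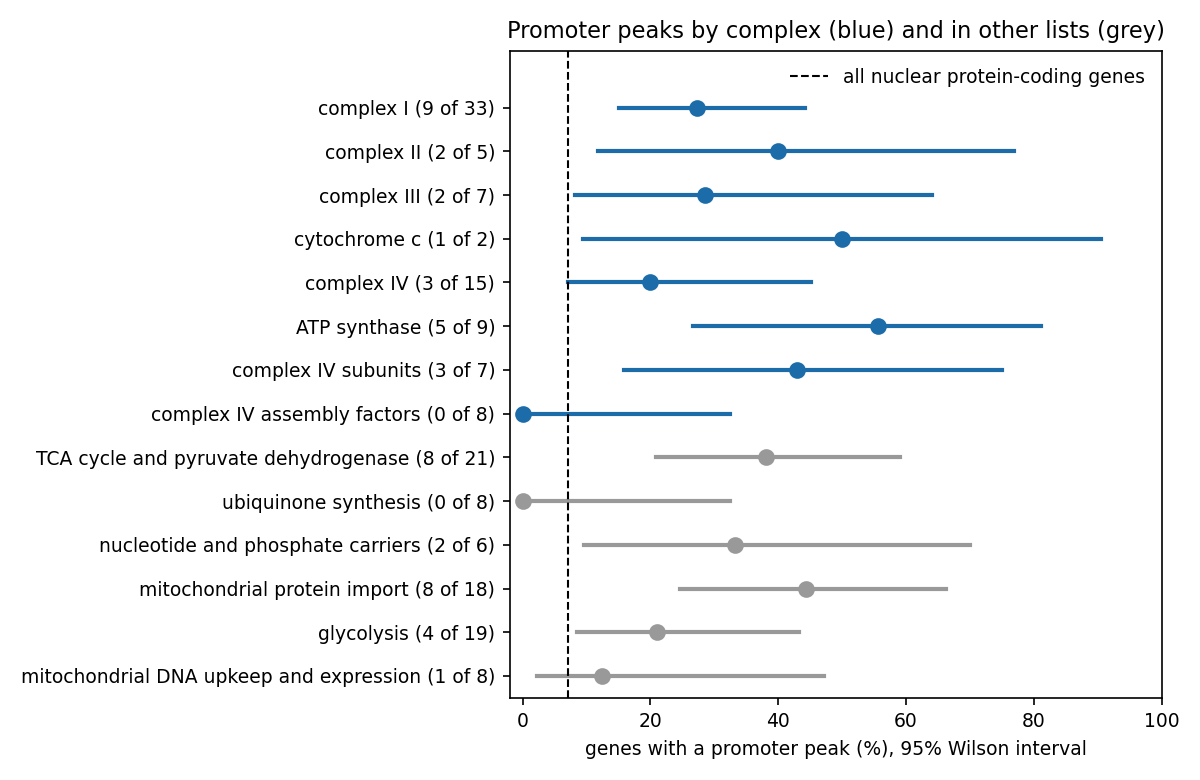
Share of genes with a promoter peak in the main list (x, %) by complex and complex IV group (blue) and in other lists of genes (grey), with 95% Wilson intervals over genes and the share of all nuclear protein-coding genes, 7.15%, dashed. In this list ATP synthase is at 55.6% and complex IV, assembly factors included, at 20%, with overlapping intervals. Complex IV subunits alone are at 42.9%, and complex IV assembly factors and ubiquinone synthesis are at 0.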

How the data were processed

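The authors deposited peak lists from 2 replicates on ce11, per the file headers. The signal value per peak is as deposited by the authors. The deposited ranked lists also hold the −log10 of the IDR. Per the notes deposited with the lists, peaks were made from filtered alignments and controls. The aligner and peak caller are not given in the sources used here. From the values, the ranked list that contains every main-list peak is the one called pooled here, and the plan had its role exchanged with that of the list ranking replicates against each other. Gene starts came from Ensembl release 115 and sequence from RefSeq, both of the same assembly. Windows, motifs and counts were computed in Python 3.11.15 with pandas 2.3.3 and numpy 2.4.6, and the window join was tested on simulated data. Named genes were by rule every bound gene, those bound in a replicate list only, the first 6 unbound of a complex by symbol, those at the window edges and up to 3 in each other list; other unbound genes were picked after their values were seen. The genes, lists and alternatives were chosen with earlier results of these data known. No p-value was computed.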

Additional observations from a re-analysis of the deposited data

How the results depend on the processing

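Of 96 pairs of a count and an alternative setting, 60 left the count within 1.5 times and 36 did not. The same settings recur across the counts, so the pairs are not independent. Each replicate's own list in place of the list from both gave 11 to 16 of the 71 genes with a promoter peak (from 22), 3 to 8 in complex I (from 9), 1 to 1 in complex II (from 2), 1 to 2 in complex III (from 2), 0 to 1 for cytochrome c (from 1) and 1 to 2 for ATP synthase (from 5); replicate 2 gave the lower count for all 71 genes, in complex I, for cytochrome c and for ATP synthase. By the same change the counts were 4 to 5 for the TCA cycle list (from 8), 1 to 3 for carriers (from 2), 3 to 5 for import (from 8), 1 to 4 for glycolysis (from 4) and 0 to 1 for mitochondrial DNA upkeep (from 1). The stricter list gave 4 in complex I, 3 for ATP synthase, 4 for the TCA cycle list, 5 for import, 2 for glycolysis and 0 for mitochondrial DNA upkeep. A window of 250 bp to each side of the start gave 13 genes in all, with 3.49% of all genes (from 7.15%). It gave 0 in complex III, 1 in complex IV, 3 for ATP synthase, 1 for carriers, 3 for import and 2 for glycolysis. With it 3 genes were in both replicate lists (from 8), and 0.976% of all genes were (from 2.47%). The stronger 50% of the peaks gave 12 in all (with 4.15% of all genes), 4 in complex I, 1 in complex III and 1 for ATP synthase. Without summits at small RNA genes complex II had 1, with 6.44% of all genes. With the nearest gene start only complex III had 1, with 5.66% of all genes. Forkhead heptamers rose from 2 to 4 summits at 100 bp to each side. No paired analysis was possible because both replicates belong to 1 group. Small lists change by over 1.5 times when 1 or 2 genes move. Depth per library is unknown.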

Other observations

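The mitochondrial genome, which encodes further subunits of the chain and of ATP synthase, was set apart from the counts above. The main list held 27 peaks on it, with signals from 50.8 to 6282.3 and a median of 912.9, and the strongest nuclear peak had 1253.4. Together the peaks covered 98.4% of that genome, with its 12 protein-coding genes. The list of replicate 1 held 28 such peaks and that of replicate 2 held 26.

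When peaks of the pooled ranked list with an IDR of at most 0.01 replaced the main list, an alternative added after the data were seen, cox-14 joined the bound genes.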
